A study of Mus musculus with 444 samples.

Results

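Transcripts of 9 Notch pathway genes were followed in single epithelial cells of the mouse mammary gland, at puberty and in the adult. The genes were taken as a named list, with no use of their values: the receptors Notch1, Notch2 and Notch3, the ligands Jag1, Jag2 and Dll1, and the target genes Hes1, Hey1 and Hey2. They were found by gene identifier among 25140 genes kept for analysis, and all 9 had reads in both stages. The cells came from female mice of the inbred strain FVB/NJ. They were sorted as total epithelium, after removal of cells with markers of blood and endothelium, and captured on the Fluidigm C1, a microfluidic device with a separate chamber for each cell. Pubertal mice were 5 weeks old by the methods, while the names of the pubertal tables give 4 weeks, and adult mice were 10 weeks old. No treatment or transgene was used. The methods describe sorts that pooled several mice, but the labels tie no cell to a mouse, a sort or a capture. Each stage was therefore 1 sample made of many cells. No test between stages was possible, and a difference between the stages cannot be told apart from a difference between sorts or captures.

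Notch receptors are membrane proteins that are activated by ligands on a neighbouring cell. Ligand binding exposes the receptor to cleavage, first by ADAM proteases and then by the gamma-secretase complex, and the freed intracellular part enters the nucleus and joins the DNA-binding protein RBPJ to switch on targets such as the Hes and Hey repressors. In the mammary gland the pathway is known for its part in luminal cell fate, with basal cells as a source of ligand and luminal cells as a site of signalling.

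The labels list 221 pubertal and 223 adult cells. Of these, 171 and 152 had at least 100000 read pairs and 1500 genes and were retained, with a median of 310677 read pairs per pubertal and 332097.5 per adult cell. All levels and shares below are from counts thinned to 100000 read pairs per cell, so that 1 read is worth 10 CPM, counts scaled to a fixed library total. Intervals are exact, at the 95% level, and cover counting error only; since the protocol has no molecular identifiers, amplified copies of 1 molecule are counted separately. The epithelial keratin gene Krt8 had a read in 92.4% of cells at puberty and 98.0% in the adult. The adult cells fell into 2 sets known from an earlier look at these data. In the 107 retained cells numbered 48 to 188, the small nuclear RNA gene Rn7sk was detected in 96.3% of cells and the basal keratin gene Krt14 in 95.3%. In the 45 other adult cells these shares were 4.44% and 68.9%, and in pubertal cells 14.0% and 46.2%. The stage ratio of each gene over all cells is therefore also given against either adult set. Ratios within classes are given against either set for some genes only, and the sets can differ where none is given. In addition, 18 cells in 5 sets resembled each other with pairwise correlations of up to 0.94, against a median of 0.37 over all pairs; no 2 cells were identical, and keeping 1 cell of each set changed no call among the 9 genes.

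Cells were divided by fixed markers into basal-like (30 pubertal, 53 adult), luminal progenitor-like (22 and 27) and mature luminal-like (74 and 26). No gene of the list was among the markers. Another 58 cells had no list clearly in the lead, and 33 were set aside because they carried at least 3 markers of fibroblasts (28 cells), endothelium (8) or pericytes (5). The 13 adult cells set aside also carried a median of 11 of the 12 basal markers, against 6.5 in the 20 pubertal ones. Each of the 12 basal, 10 luminal progenitor and 10 mature luminal markers was highest in its own class. Since the same markers set the classes, this is no independent check of them. The cuts were not sharp: 10 cells lay within 0.1 score units above the margin for a class and 19 within 0.1 below it. These classes made up unequal shares of the stages, with mature luminal-like cells at 43.3% of pubertal and 17.1% of adult cells, and basal-like cells at 17.5% and 34.9%.

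The promoter windows of 3 members are shown, as RefSeq gives them for GRCm38.p6, with 250 bases before a transcription start and 50 after it. Dll1 has a pair of such windows, and the one at the outer end of the gene is printed; the other lies within the gene, at chr17:15375774-15376073. Dll1 and Jag1 are the ligands whose levels differed by cell class, and Hey2 is the target whose window holds the core of the RBPJ motif, TGGGAA on either strand. Capitals mark that core.
Dll1 promoter, chr17:15376883-15377182, reverse strand: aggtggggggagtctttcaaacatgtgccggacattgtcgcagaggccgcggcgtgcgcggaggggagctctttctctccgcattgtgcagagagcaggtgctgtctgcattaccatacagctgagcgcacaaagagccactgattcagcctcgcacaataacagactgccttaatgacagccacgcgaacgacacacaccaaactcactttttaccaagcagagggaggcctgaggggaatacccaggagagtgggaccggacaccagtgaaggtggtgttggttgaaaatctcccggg
Jag1 promoter, chr2:137116471-137116770, reverse strand: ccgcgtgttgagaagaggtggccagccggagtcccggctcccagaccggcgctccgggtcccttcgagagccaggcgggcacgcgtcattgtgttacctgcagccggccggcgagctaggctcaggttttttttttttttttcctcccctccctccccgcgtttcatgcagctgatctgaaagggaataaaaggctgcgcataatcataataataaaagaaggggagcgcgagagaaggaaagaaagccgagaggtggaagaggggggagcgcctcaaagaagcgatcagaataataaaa
Hey2 promoter, chr10:30842734-30843033, reverse strand: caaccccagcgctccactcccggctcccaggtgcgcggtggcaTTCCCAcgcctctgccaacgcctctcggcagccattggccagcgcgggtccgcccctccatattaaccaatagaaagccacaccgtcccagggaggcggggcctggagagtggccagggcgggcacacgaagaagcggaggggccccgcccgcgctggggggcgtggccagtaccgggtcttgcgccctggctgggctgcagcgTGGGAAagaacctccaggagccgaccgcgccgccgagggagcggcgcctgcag
A window was found for 7 of the 9 genes, and Hey1 and Hes1 had none. The motif core was present in 25.6% of all 32851 windows of this length. Among the 8 windows of the 7 genes it occurred only in that of Hey2, at positions 44 and 248 of the 300 bases. A match is a match of letters, and its absence concerns this window alone.

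Per gene length, Jag1 led the list in puberty and Hes1 in the adult. In RPKM, read counts scaled for gene length and library total, the pubertal levels were 159.6 for Jag1, 81.0 for Hes1, 12.4 for Notch2, 11.8 for Dll1, 3.61 for Hey1, 2.58 for Notch3, 1.59 for Notch1, 0.389 for Jag2 and 0.0231 for Hey2. Notch2 and Dll1 had overlapping counting intervals (11.9 to 12.9 and 10.9 to 12.7 RPKM), and the other neighbours in this order did not. In the adult the order was Hes1 at 217 RPKM, Jag1 at 107, Dll1 at 17.5, Notch2 at 8.00, Hey1 at 2.12, Notch1 at 1.24, Notch3 at 0.555, Hey2 at 0.286 and Jag2 at 0.276. Here the intervals of the neighbours from Notch3 downwards overlapped. Notch2 was the most abundant of the 3 receptors at both stages, and Jag1 the most abundant ligand.

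**Figure D1:**
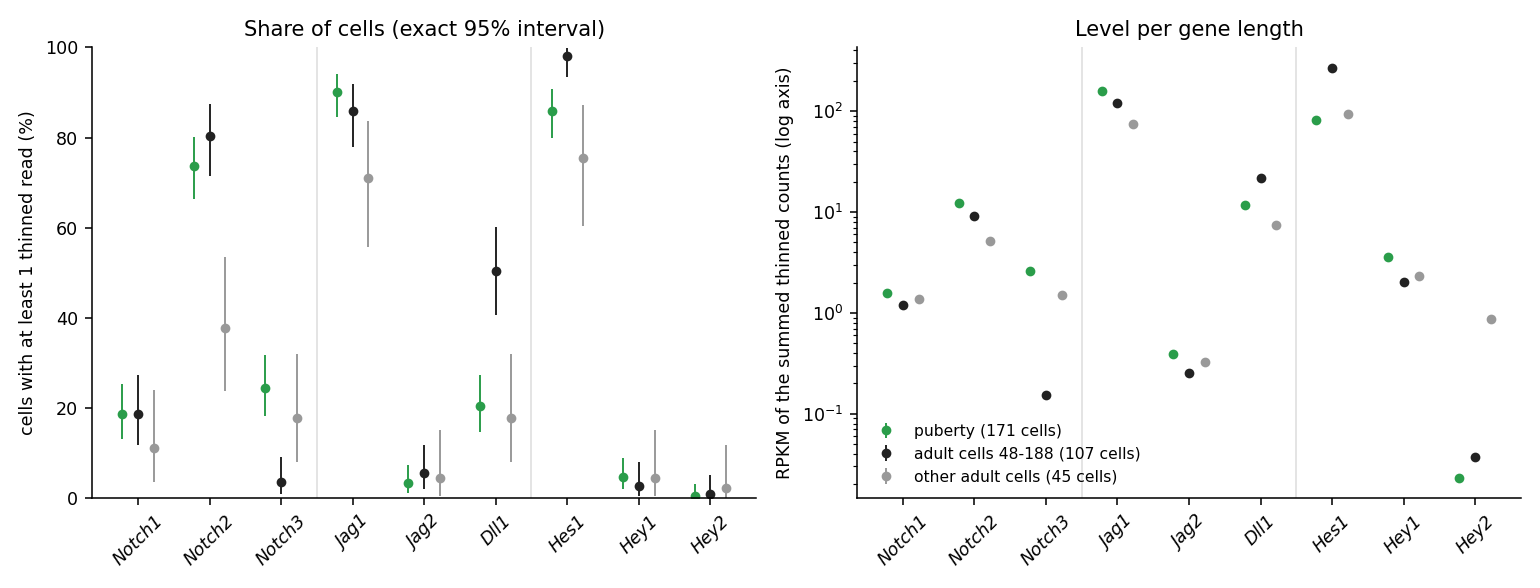
Share of cells with at least 1 thinned read (left, percent, bars are exact 95% intervals) and RPKM of the summed thinned counts (right, log axis) for the 9 genes in 171 pubertal cells, 107 adult cells numbered 48 to 188 and 45 other adult cells. Jag1 and Hes1 stand highest in all 3 sets, Notch3 is lowest in adult cells 48 to 188, and Dll1 is detected in the largest share of that same set.

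Between the stages, 1 of the 9 genes was at least 2-fold higher in puberty (Notch3) and 1 at least 2-fold lower (Hes1). Of these genes 6 passed the level needed for the call, a mean of 10 CPM over the stages: Notch1, Notch2, Notch3, Jag1, Dll1 and Hes1. Over all 8850 genes that passed, 19.0% were at least 2-fold higher in puberty and 13.9% at least 2-fold lower. A call for 1 gene in each direction among 6 genes is near that background. Against adult cells 48 to 188 the members called were the same 2, with 25.0% of all genes higher and 15.1% lower. Against the other adult cells Notch2 and Jag1 were called higher and none lower, with 27.3% and 19.3% of all genes. With 1 CPM added to both sides, log2 ratios of puberty over adult had a median of 0.33 over the 9 genes and 0.08 over all genes tested.

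**Figure D2:**
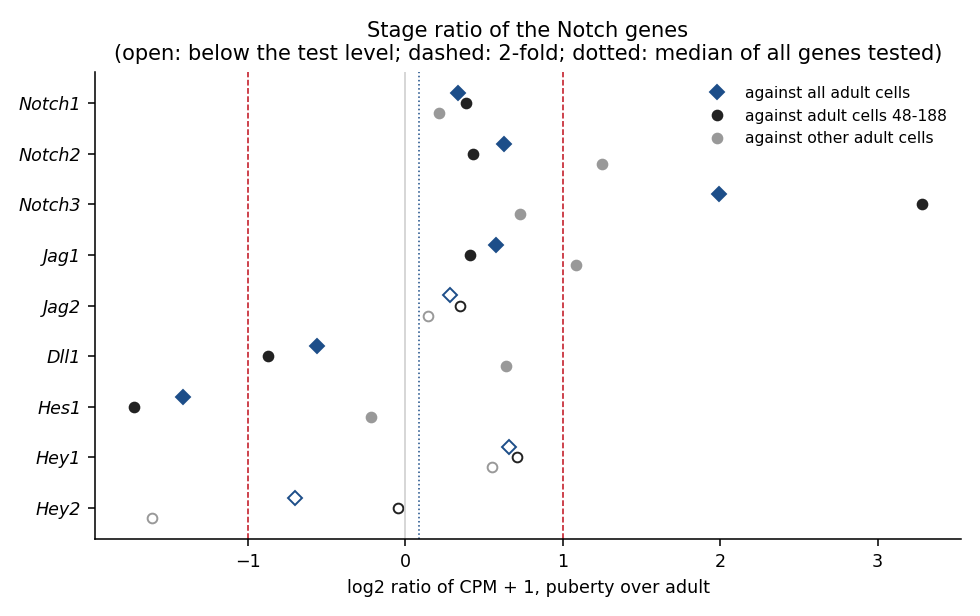
Log2 ratio of CPM + 1, puberty over adult, for each gene against all adult cells (diamonds), adult cells 48 to 188 (black) and the other adult cells (grey); open symbols are below the level needed for a call, dashed lines mark 2-fold and the dotted line the median of all genes. Notch3 ranges from 0.73 to 3.28, Hes1 from -1.72 to -0.22, and Dll1 lies on either side of 0 depending on the adult set.

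Notch1 (gene 18128; chromosome 2, 26457902 to 26503822, reverse strand) encodes a receptor with known roles in luminal progenitors. It was detected in 18.7% of cells at puberty (13.2 to 25.4%) and 16.4% in the adult (10.9 to 23.3%), at 15.1 and 11.8 CPM. The highest pubertal cell had 390 CPM and the highest adult cell 520 CPM, and the median cell had none at either stage. The log2 ratio of the stages was 0.33, with 0.39 against adult cells 48 to 188 and 0.21 against the others, all under 2-fold. Within the classes the ratio was -0.54 in basal-like cells, -0.52 in the luminal progenitor-like class and -0.43 among mature luminal-like cells. The luminal values rested on single cells: with the highest cell of each class left out, the pubertal level was above the adult one in both luminal classes and below it in basal-like cells. None of the 5 luminal progenitor-like cells among the other adult cells had a Notch1 read. The level in basal-like cells was 3.33 CPM in puberty and 5.28 in the adult. In luminal progenitor-like cells it was 17.3 and 25.2 CPM, and in mature luminal-like cells 18.6 and 25.4 CPM. Notch1 was thus at least 2-fold lower in basal-like cells than in either luminal class at both stages, a pattern met by 3.63% of the 6813 genes that could be compared; this call was made after the levels had been seen. The shares of detecting cells lay closer together, with overlapping intervals: 10.0% of basal-like, 22.7% of luminal progenitor-like, then 17.6% of mature luminal-like cells in puberty, and 15.1%, 18.5% and 26.9% in the adult. A single cell held 76.5% of the Notch1 reads of the adult luminal progenitor-like class. With the highest cell of each class left out, the adult levels were 3.46, 6.15 and 9.60 CPM, and basal-like cells were no longer 2-fold lower; the pubertal pattern held, at 1.72, 8.10 and 13.6 CPM. Reads of 3 overlapping genes (0610009E02Rik, Gm13568 and Mir6996) cannot be told apart from those of Notch1 where the loci overlap, as the use of strand was not stated.

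Notch2 (gene 18129; chromosome 3, 98013538 to 98150367, forward strand) encodes the most broadly detected receptor of the list. It was found in 73.7% of cells at puberty (66.4 to 80.1%) and 67.8% in the adult (59.7 to 75.1%), at 130.3 and 84.1 CPM. The median cell had 60 CPM in puberty and 30 in the adult, and the highest 880 and 1220 CPM. The log2 ratio was 0.63. Against adult cells 48 to 188 it was 0.43, and against the other adult cells 1.25, where Notch2 was found in 37.8% of cells. Over all cells of a stage it was not called low or high in a class: the levels in basal-like, then luminal progenitor-like, then mature luminal-like cells were 90.0, 158 and 95.0 CPM at puberty and 78.1, 65.6 and 54.2 CPM in the adult. Among the other adult cells alone it was called for basal-like cells, with 58.2 CPM against 6.00 and 21.25 CPM, from 11, 5 and 16 cells. Within the classes, in the same order, the log2 ratio of the stages was 0.20, 1.25 and 0.80. It was 0.11, 0.99 and -0.17 against adult cells 48 to 188, and 0.62, 4.50 and 2.11 against the others. The cells set aside had the highest Notch2 level, with 268.5 CPM in puberty and 272 in the adult. They held 24.1% and 27.7% of the Notch2 reads, from 11.7% and 8.55% of the cells. Gm42819 and Gm42820 overlap the gene.

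Notch3 (gene 18131; chromosome 17, 32120820 to 32166896, reverse strand) encodes a receptor known from luminal cells and from the mural cells of vessels, and it was the gene with the largest ratio in favour of puberty. It was detected in 24.6% of cells at puberty (18.3 to 31.7%) and 7.89% in the adult (4.15 to 13.4%). The unthinned shares were 32.2% and 10.5%. Its level was 20.5 CPM at puberty and 4.41 in the adult, from 351 and 67 reads, which gave a log2 ratio of 1.99. The adult sets differed: the level was 1.21 CPM in cells 48 to 188, where 3.74% of cells had a read, and 12.0 CPM in the others, where 17.8% did. The ratio was accordingly 3.28 against the former and 0.73 against the latter, which is under 2-fold. A cell set aside, among the other adult cells, held 36 of the 67 adult reads (53.7%) and 66.7% of the 54 reads of that adult set. The level of 12.0 CPM and the ratio of 0.73 thus leaned on 1 cell. With the highest cell of each stage left out, the log2 ratio was 2.50, but the mean level was then too low for a call.

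Within each class Notch3 was again higher in puberty, but only in mature luminal-like cells did it reach the mean level for a call. The log2 ratio was 2.17 in basal-like cells, 1.84 in the luminal progenitor-like class and 2.06 among mature luminal-like cells. The levels in that order were 4.33, 14.5 and 27.2 CPM in puberty and 0.189, 3.33 and 5.77 CPM in the adult, so that mature luminal-like cells were highest and basal-like cells lowest at either stage. The adult levels rest on 1, 9 and 15 reads. They were 0.238, 4.09 and 0 CPM in adult cells 48 to 188 and 0, 0 and 9.38 CPM in the others, below the pubertal level in each case. Among pubertal mature luminal-like cells 29.7% had a Notch3 read (19.7 to 41.5%). Of the 16 mature luminal-like cells among the other adult cells 31.3% had a read, and of the 10 among adult cells 48 to 188 none did, which allows a share of up to 30.0%. An antisense gene, Gm17276, overlaps Notch3.

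**Figure D3:**
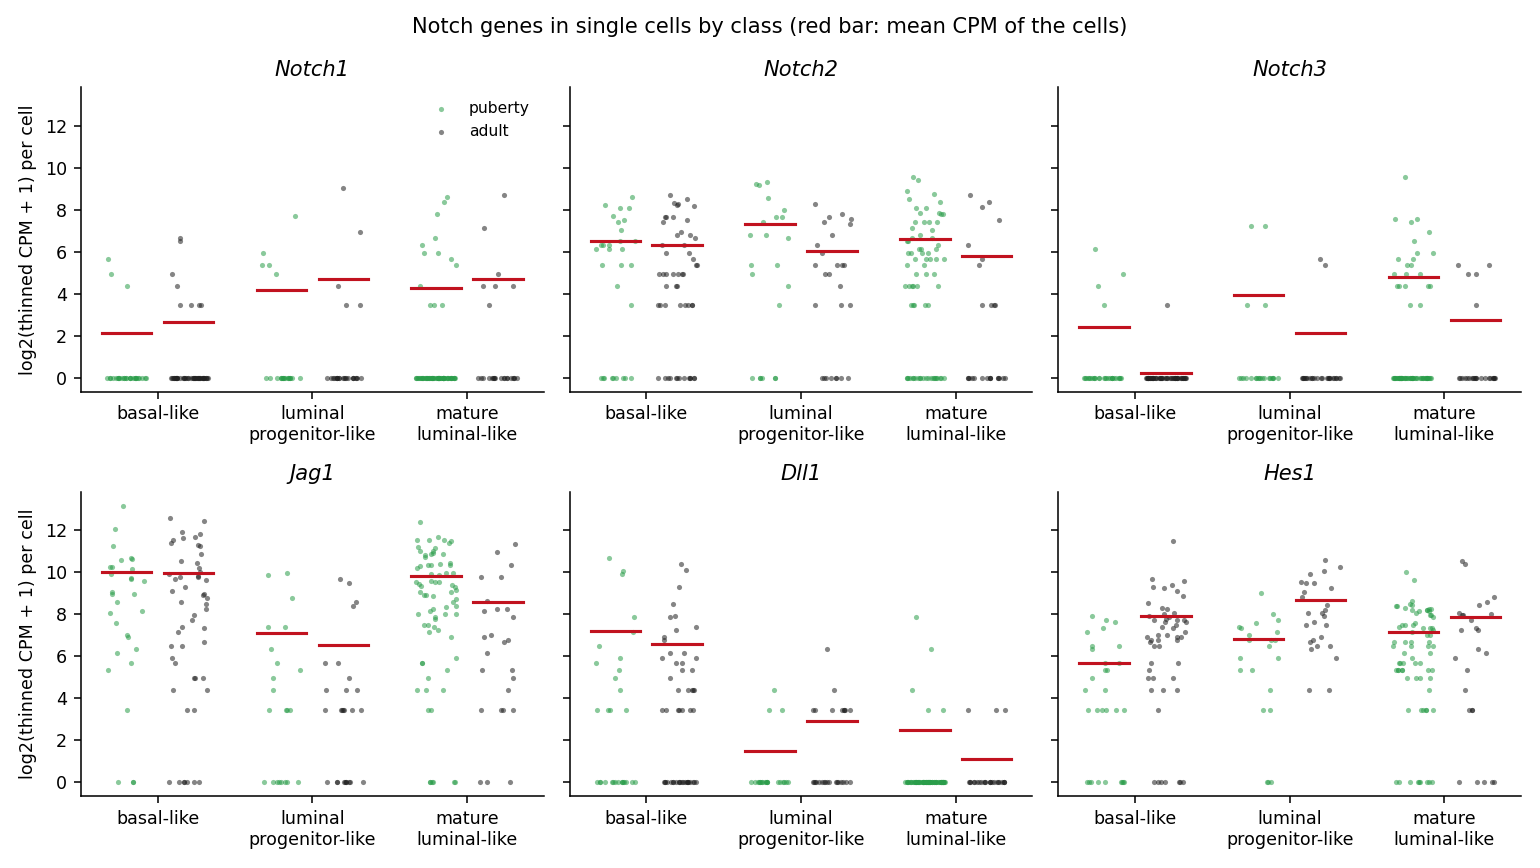
Log2(thinned CPM + 1) of 6 genes in each cell of the basal-like, the luminal progenitor-like and the mature luminal-like class, at puberty (green) and the adult (black); every point is a cell and red bars mark the mean CPM on the same scale. The mean of Dll1 is highest in basal-like cells and that of Jag1 lowest in luminal progenitor-like cells, and the adult mean of Hes1 lies above the pubertal one in each class.

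Jag1 (gene 16449; chromosome 2, 137081451 to 137116520, reverse strand) encodes a ligand of the Jagged family and was found in most cells. Its share was 90.1% in puberty (84.6 to 94.1%) and 81.6% in the adult (74.5 to 87.4%), and its level 877 and 586 CPM. The median cell had 500 CPM in puberty and 110 in the adult, with maxima of 9180 and 6120 CPM. The log2 ratio was 0.58, under 2-fold, with 0.41 against adult cells 48 to 188 and 1.08 against the others. No annotated gene overlaps Jag1.

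By class, Jag1 was set apart by its low level in luminal progenitor-like cells. There it had 135 CPM at puberty and 93.3 in the adult, and the median cell had 10 CPM at both stages. Basal-like cells had 1024 and 1007 CPM, and mature luminal-like cells 906 and 380.4 CPM. The luminal progenitor-like class was at least 2-fold below each other class at both stages, as it was for 5.93% of the 6813 genes compared, a call made after the levels were seen. Jag1 was also called for basal-like cells in the adult (2-fold above each other class, as were 17.4% of 7943 genes), but not at puberty, when 16.2% of 8344 genes were. That call rested on adult cells 48 to 188, whose basal-like cells had 1215 CPM; in the 11 basal-like cells among the other adult cells the level was 215 CPM, below the 329 CPM of the mature luminal-like cells there. The stage ratio of Jag1 in mature luminal-like cells was 1.25 on the log2 scale, with 0.97 against adult cells 48 to 188 and 1.46 against the others. In basal-like cells it was 0.02, but this joined a value of -0.25 against the former with 2.25 against the latter. None of the 5 luminal progenitor-like cells among the other adult cells had a Jag1 read.

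Dll1 (gene 13388; chromosome 17, 15367354 to 15376932, reverse strand) encodes a Delta-family ligand that is known from mammary basal cells. It was the 1 gene of the list called for the same class at both stages. In basal-like cells it had 146 CPM at puberty and 96.6 in the adult. In luminal progenitor-like cells it had 1.82 and 6.67 CPM, and in mature luminal-like cells 4.73 and 1.15 CPM. A call for basal-like cells at both stages was made for 5.06% of the 6813 genes tested at both, and a call for any 1 class at both for 13.2%. Dll1 kept the call under each of the 9 other ways of setting the classes, counts or cells. Among basal-like cells 50.0% had a read at puberty (31.3 to 68.7%) and 58.5% in the adult (44.1 to 71.9%). Before thinning, 19 of the 30 pubertal and 37 of the 53 adult basal-like cells had one. Basal-like cells held 63.6% of the pubertal and 56.1% of the adult Dll1 reads, and most of the rest lay in cells of no class (25.8% and 40.9%).

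Over all cells Dll1 went the other way from its level within basal-like cells. Its level was 40.3 CPM at puberty and 60.0 in the adult, for a log2 ratio of -0.56, whereas within basal-like cells the ratio was 0.59, with 0.50 against adult cells 48 to 188 and 1.01 against the others. It was detected in 20.5% of cells at puberty (14.7 to 27.3%) and 40.8% in the adult (32.9 to 49.0%), or 25.1% and 56.6% unthinned. Against the other adult cells, of which 17.8% had a read, the ratio was 0.64; against cells 48 to 188, of which 50.5% did, it was -0.87. At 100 CPM or more the shares were 5.85% in puberty and 10.5% in the adult. Low-level detection was also seen outside the basal-like class. A read was found in 37.0% of adult luminal progenitor-like cells (19.4 to 57.6%), at a highest value of 80 CPM, and in 13.6% of pubertal ones (2.91 to 34.9%), with overlapping intervals. All 10 of these adult cells, and the 3 adult mature luminal-like cells with a read, were among cells 48 to 188; none of the 5 and 16 such cells among the other adult cells had one. Of the cells set aside, 5 of 20 at puberty and 1 of 13 in the adult had a read. Over all 27 adult luminal progenitor-like cells a median of 7 of the 12 basal markers was detected, against 1 in the pubertal ones. Whether the basal markers and Dll1 in these cells came from the cells themselves was not tested. A930024N18Rik, a long non-coding RNA gene on the opposite strand, overlaps Dll1.

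Basal-like cells with and without a thinned Dll1 read were compared for some other basal genes. Before thinning, 19 of the 30 pubertal and 37 of the 53 adult basal-like cells had a Dll1 read. Some cells counted here as without Dll1 therefore had one. The level of the oxytocin receptor gene Oxtr was 667 CPM in the 15 pubertal cells with Dll1 and 48.7 CPM in the 15 without. In the adult it was 556 CPM in 31 cells and 303 CPM in 22. Oxtr reads were present in 10 and 3 of the pubertal cells and in 25 and 15 of the adult ones. With the highest cell of each group left out, the means were 427 and 10.7 CPM at puberty and 391 and 227 CPM in the adult. The basal keratin gene Krt14 was higher with Dll1, at 1752 and 919 CPM in puberty and 4696 and 3104 CPM in the adult. Of the other basal markers only Trp63, Krt5 and Acta2 were compared, and none of them was higher with Dll1 at both stages. The transcription factor gene Trp63 was lower with Dll1, at 231 and 293 CPM in puberty and 89.0 and 102 CPM in the adult. The keratin gene Krt5 was at 216 and 157 CPM in puberty but at 278 and 376 CPM in the adult. Hes1 was at 54.0 and 47.3 CPM in puberty and at 290.0 and 170 CPM in the adult. The smooth muscle actin gene Acta2 was nearer to even, at 9497 and 10325 CPM in puberty and 10695 and 9928 CPM in the adult. Jag1 was at 847 CPM with and 1202 CPM without Dll1 in puberty, and at 1028 and 977 CPM in the adult. The cells were grouped by a measured gene, and these values are a description only.

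Jag2 (gene 16450; chromosome 12, 112907803 to 112929812, reverse strand), the other Jagged ligand, was scarcely detected. It had 27 reads at puberty and 17 in the adult, in 3.51% (1.30 to 7.48%) and 5.26% (2.30 to 10.1%) of cells. At 1.58 and 1.12 CPM it was below the level needed for a call. The pubertal reads were concentrated, with 51.9% in 1 cell of 140 CPM. Mir6941 overlaps this gene.

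**Figure D4:**
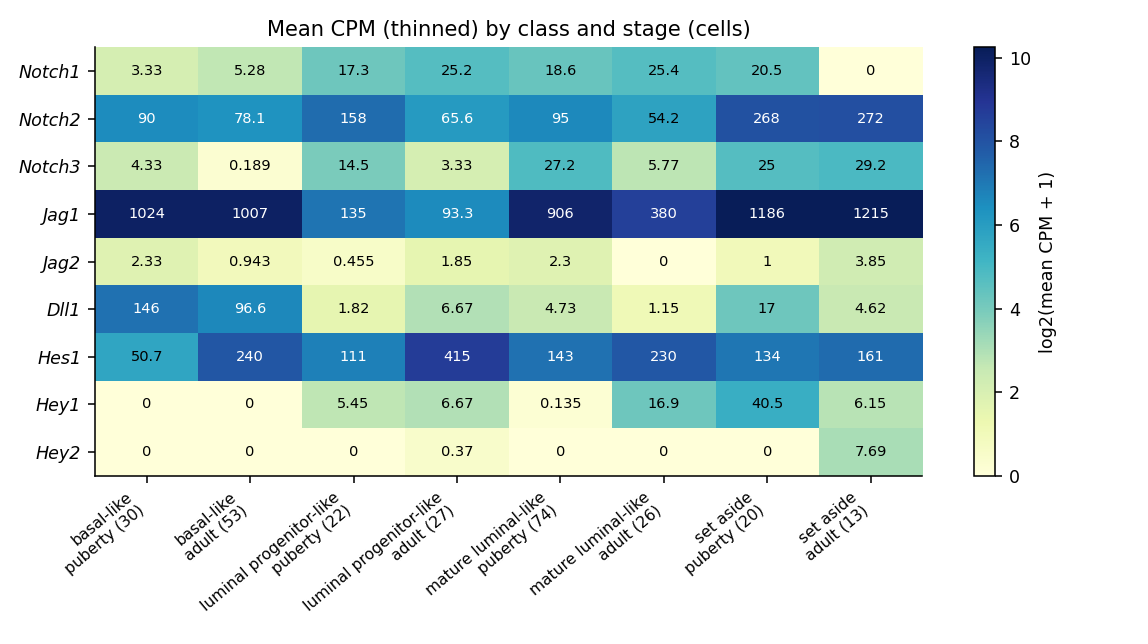
Mean thinned CPM of the 9 genes (rows) in each class and stage (columns, number of cells in brackets), with the color giving log2(mean CPM + 1). Dll1 has 146 and 96.6 CPM in basal-like cells and under 7 CPM in either luminal class, while Jag1 falls to 135 and 93.3 CPM in luminal progenitor-like cells.

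Hes1 (gene 15205; chromosome 16, 30065357 to 30067796, forward strand) encodes the repressor that is the classic target of Notch, although other pathways also regulate it. It was lower in puberty, at 118 CPM against 315 CPM, with a log2 ratio of -1.41. The share of cells with a read was 86.0% at puberty (79.8 to 90.8%) and 91.4% in the adult (85.8 to 95.4%). The median cell had 70 CPM in puberty and 160 in the adult, and the highest 1030 and 4790 CPM. Adult cells 48 to 188 stood at 390 CPM, with 210 CPM in the median cell, and the other adult cells at 137 CPM, with a median of 110. The log2 ratio was thus -1.72 against the former and -0.22 against the latter. Those sets also differed in Rn7sk and Krt14, as given above, and the part of capture or library in the Hes1 difference was not tested.

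By class, Hes1 was highest in mature luminal-like cells in puberty (143 CPM), followed by luminal progenitor-like (111) and basal-like cells (50.7). In the adult the luminal progenitor-like cells led with 415 CPM, ahead of basal-like (240.4) and mature luminal-like cells (230.4). All 27 adult luminal progenitor-like cells had a Hes1 read. No class was 2-fold above both others at either stage. The stage ratio was -2.22 in basal-like cells, -1.89 in the luminal progenitor-like class and -0.69 among mature luminal-like cells. Against the other adult cells alone these values were -0.28, -0.83 and 0.12, from 11, 5 and 16 adult cells, and against adult cells 48 to 188 they were -2.48, -2.06 and -1.44. No annotated gene overlaps Hes1.

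Hey1 (gene 15213; chromosome 3, 8663359 to 8667038, reverse strand) and Hey2 (gene 15214; chromosome 10, 30832359 to 30842783, reverse strand) encode related repressors that are best known from heart and vessels. Hey1 was found in 8 pubertal and 5 adult cells (4.68% and 3.29%), at 7.95 and 4.67 CPM. Of the 13 cells, 4 were among those set aside and 3 carried at least 3 of 6 endothelial markers. The set-aside cells held 59.6% of the pubertal Hey1 reads, while a mature luminal-like cell of 440 CPM held 62.0% of the adult ones. None of the 30 pubertal and 53 adult basal-like cells had a thinned Hey1 read, which allows shares of up to 10.0% and 5.66%. Hey2 had 1 read at puberty and 11 in the adult, in 3 cells in all. The ratio of puberty to adult was 0.0808 (0.00188 to 0.556), with 10 of the adult reads in 1 cell that carried all 6 fibroblast markers. Neither gene reached the level for a comparison of classes over a whole stage. Within the adult sets Hey1 was called for mature luminal-like cells among cells 48 to 188 and for luminal progenitor-like cells among the others, each from 1 cell, of 440 and 150 CPM.

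The genes whose expression across the 323 cells was most like that of a member followed the cell classes in part. All cells share a depth of 100000 read pairs, the cells of a stage share their sorts, and no test is attached to these correlations of log2(CPM + 1). Dll1 was nearest to the basal genes Mylk (Pearson r = 0.53), Krt14 (0.50) and Myh11 (0.47), which were among the markers of that class. Jag1 was nearest to Marcks, Myh9 and Gpc1 (each 0.41). For Notch2 only Kdelr2 and Gja1 reached 0.30. Hes1 was nearest to Spp1 (0.32), Wfdc18 (0.31) and Rn7sk (0.31). Its correlation with Rn7sk was -0.05 within puberty, 0.13 within adult cells 48 to 188 and -0.18 within the other adult cells. In the same order it was 0.15, 0.20 and 0.17 with Spp1, and 0.09, 0.42 and 0.23 with Wfdc18. The 9 genes themselves were weakly related, with Notch2 and Jag1 (0.20) the closest pair.

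Receptor and ligand transcripts were often found in the same cell. At least 1 of the 3 receptors was detected in 83.6% of cells at puberty and 75.7% in the adult, and at least 1 of the 3 ligands in 91.2% and 87.5%. Both a receptor and a ligand were detected in 77.2% of cells at puberty (70.2 to 83.3%) and 69.1% in the adult (61.1 to 76.3%). The adult sets lay on either side of puberty, with 78.5% of cells 48 to 188 and 46.7% of the others, and at least 1 receptor was found in 85.0% and 53.3%. In most cells the pair was Notch2 with Jag1, which were found together in 114 pubertal and 89 adult cells. At least 2 receptors were found together in 29.2% of cells at puberty (22.5 to 36.7%) and 15.8% in the adult (10.4 to 22.6%), with 16.8% and 13.3% in the adult sets. Jag1 and Dll1 shared a cell in 46.7% of pubertal and 50.9% of adult basal-like cells. The shares were 13.6% and 37.0% of luminal progenitor-like cells, and 5.41% and 11.5% of mature luminal-like cells. In adult cells 48 to 188 they were 54.8% of basal-like, 45.5% of luminal progenitor-like and 30.0% of mature luminal-like cells. Among the other adult cells they were 36.4%, 0% and 0%, from 11, 5 and 16 cells.

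The rest of the pathway was described from a list of 54 other genes, of which 49 had thinned reads and 34 passed the level for a call. Of the 34, 1 was called higher and 6 lower in puberty, beside the 19.0% and 13.9% of all genes. Only Adam10, which encodes an ADAM protease of the first receptor cleavage after ligand binding, was at least 2-fold higher in puberty. It had 106 CPM against 40.1 CPM, for a log2 ratio of 1.38, and the ratio was 1.56 and 1.03 against the adult sets. Adam10 was also called for mature luminal-like cells at both stages, with 166 and 127 CPM, as were 5.27% of the genes compared. In basal-like cells it had 11.7 and 13.2 CPM, and in luminal progenitor-like cells 37.3 and 22.6 CPM. Within each class the stages were thus less than 2-fold apart.

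The genes at least 2-fold lower in puberty were 6: Mib1, an E3 ligase for ligand endocytosis, the glycosyltransferase genes Lfng, Rfng and Poglut1, the DNA-binding partner gene Rbpj and the Hes-family gene Hes6. For 3 of these 1 adult cell held most reads, with 96.2% for Lfng, 89.6% for Hes6 and 79.3% for Mib1. With the highest cell of each stage left out, their log2 ratios moved from -4.51 to -0.91, from -3.39 to -0.76 and from -2.13 to -0.29. None of the 6 was called lower then; Rfng had a ratio of -1.30, at a mean level too low for a call. The log2 ratio of Rbpj was -1.02, from 18.1 CPM at puberty and 37.7 CPM in the adult, but it was 0.11 against adult cells 48 to 188 and -2.21 against the others, where 1 cell held 56.4% of the reads. Of the 35 pathway genes tested for a class at both stages, 4 were called for the same class at both. That is near the 13.2% of all genes so called. Apart from Adam10, they were Maml3 and Ctbp1 for luminal progenitor-like cells (2.82% of genes) and Nedd4 for basal-like cells (5.06%). Maml3, which encodes a coactivator, had 77.3 and 97.8 CPM there. Its call leaned on 1 cell per stage, which held 38.7% of all pubertal and 54.6% of all adult Maml3 reads. Ctbp1, which encodes a corepressor, had 35.9 and 27.4 CPM. The E3 ligase gene Nedd4 had 1321 and 969 CPM in basal-like cells.

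The further ligands and direct targets were near the floor. Dll4, the endothelial ligand, had 1 read at puberty and 6 in the adult, each time in 1 cell. Notch4 had 36 and 38 reads in 4 and 3 cells. Hes5, Hes2, Hes7 and the glycosyltransferase gene Mfng, each listed in the tables, had no read in the 323 retained cells before thinning, which allows a share of up to 0.929%. The target genes shared with other pathways were abundant, with Gata3 at 522 and 529 CPM, Ccnd1 at 509.8 and 311 CPM and Myc at 200.1 and 109 CPM. None of these 3 passed 2-fold against all adult cells.

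**Figure D5:**
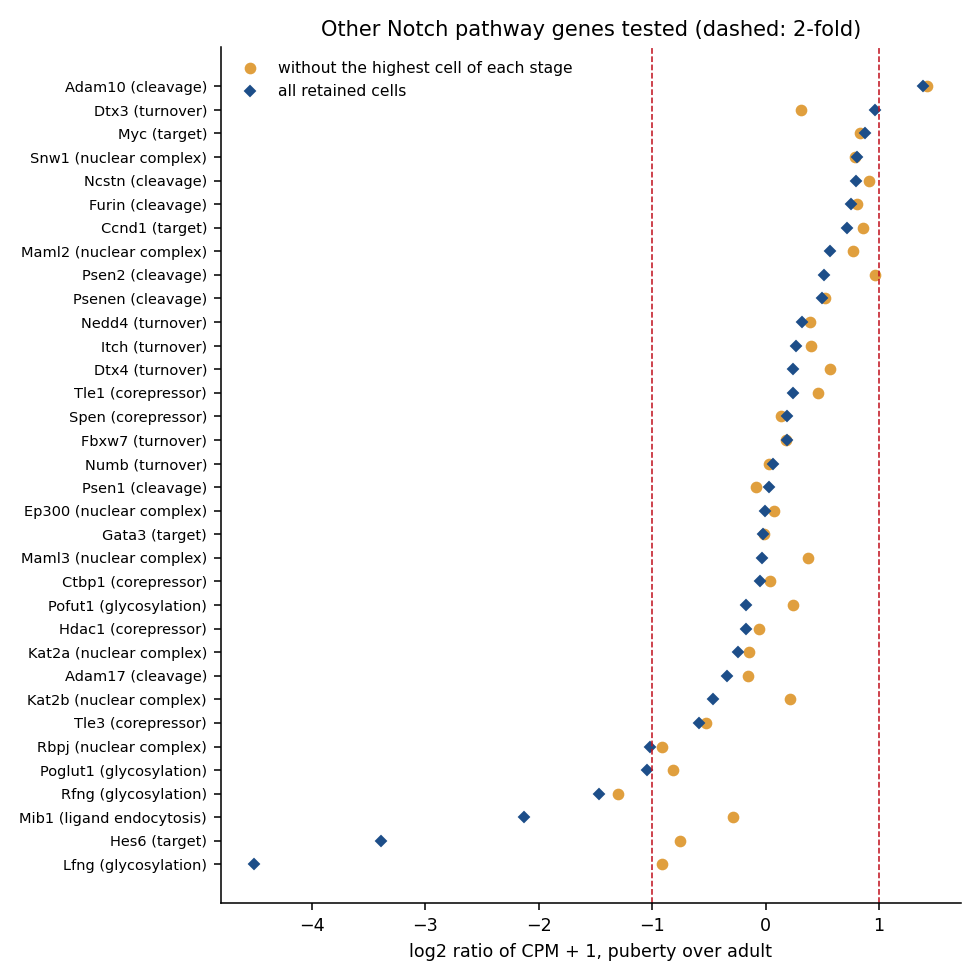
Log2 ratio of CPM + 1, puberty over adult, for the 34 other pathway genes that passed the level for a call (role in brackets), with all retained cells (diamonds) and with the highest cell per stage left out (circles); dashed lines mark 2-fold. Lfng, Hes6 and Mib1 move to within 2-fold when 1 cell per stage is left out, and Adam10 stays above it.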

How the data were processed

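Single-cell libraries were made by the authors with the Fluidigm C1 and Nextera XT and sequenced on a NextSeq 500. The deposited values are counts of read pairs per gene, 1 table per cell, with gene identifier and exonic length, the other deposited column, in bases. The authors aligned reads to mm10 with Subread and counted them with featureCounts. Versions and the use of strand are not given in the sources used here. The combined table was not used.

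Of 27179 identifiers, 25275 had a current entry in RefSeq GRCm38.p6, and 1.84% of read pairs fell on the others. Leaving out 15 mitochondrial and 120 ribosomal protein genes left 25140. Cells needed 100000 read pairs and 1500 genes, the minimums of the study. Retained cells had 101063 to 1355737 read pairs. Counts were thinned to 100000 per cell without replacement (seed 1), summed by stage, class or adult set and scaled to CPM, and log2 ratios carry a prior of 1 CPM. A gene was called at 2-fold if the mean of the stage levels was at least 10 CPM, and for a class if its CPM + 1 was 2-fold above each other class. Classes came from the mean z-score of fixed markers (at least 0.3 above the next list), after cells with 3 or more markers of a non-epithelial list at 10 CPM or more were set aside. No doublet caller was run; the methods describe a check of captured cells by microscopy. Shares have Clopper-Pearson and sums Poisson intervals. Where a share is 0, the limit is that of 3 cells. Genes named were the 9 members, the other pathway genes called between stages or for the same class at both, and up to 3 genes per member with r of at least 0.30 among 4817 genes detected in 20% of cells. Others named were chosen after their values were seen: Oxtr, Acta2, Krt5, Trp63, Notch4, Dll4, Hes2, Hes5, Hes7, Mfng, Gata3, Ccnd1 and Myc. A gene of the pathway list is not reported here. The members, lists and alternatives were chosen with earlier results of these data known. No test was computed, since each stage is 1 sample. The scripts used Python 3.11.15 with numpy 2.4.6, scipy 1.17.1 and pandas 2.3.3. TMM factors came from edgeR 4.0.16 in R 4.3.3 and served as an alternative scaling only. The calling functions were tested on simulated data.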

Additional observations from a re-analysis of the deposited data

How the results depend on the processing

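Each stage is 1 sample, so no replicate could be left out. No paired analysis was possible because cell numbers pair nothing across stages and no replicate test was made. The main counts were 1 member higher and 1 lower in puberty, and 1 of 34 other pathway genes higher and 6 lower. Adult cells 48 to 188 alone gave 7 of 35 pathway genes higher and 2 lower, beside 25.0% and 15.1% of all genes. Of 6 members tested, the other adult cells alone gave 2 higher (Notch2 and Jag1) and 0 lower. Of 32 pathway genes they gave 4 higher, beside 27.3% of all genes higher and 19.3% lower. Without the highest cell of each gene, 0 members were higher, since Notch3 fell below the level for a call, and 0 of 30 pathway genes were lower. Of all genes, 21.3% were then higher and 9.81% lower. A prior of 10 CPM gave 3 of 34 pathway genes lower, beside 9.74% of all genes. The stricter cell filter (200000 read pairs, 2500 genes) gave 2 of 33 higher, beside 20.8%. Leaving out cells set aside gave 4 of 34 higher, beside 19.8%. Within basal-like cells 0 of 4 members and 7 of 32 pathway genes were higher, beside 30.0% of all genes. Within luminal progenitor-like cells 5 of 27 pathway genes were higher, beside 33.5% of all genes. The median log2 ratio of the members there was -0.45, against 0.33 over all cells. Within mature luminal-like cells 2 of 5 members were higher (Notch3 and Jag1) and 0 lower. Of 29 pathway genes, 6 were higher and 3 lower there, beside 31.5% and 21.0% of all genes. The median log2 ratio of the members there was 0.80. Unthinned sums, another seed, TMM scaling (median of all genes -0.05) and other low-value filters changed no call between stages among the members. With unthinned counts Notch3 was also called for mature luminal-like cells at puberty. The same call was made with a class margin of 0, and with the cells set aside kept in the classes. Apart from the settings named, causes were not tested. Keeping 1 cell of alike sets, detection at 100 CPM and the lowest-class call were chosen after seeing the data. With 1 sample per stage, depth is not the limit on the stage comparison; for Jag2, Hey1 and Hey2 the low counts are.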
